A study of Saccharomyces cerevisiae with 8 samples.

Results

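The genes described here encode the subunits of the nuclear RNA polymerases of Saccharomyces cerevisiae, Pol I, Pol II and Pol III. They were chosen by name, as the genes called RPA, RPB or RPC with a number plus RPO21, RPO26, RPO31 and RET1, which gave 31 of the 7127 genes in the deposited table. By textbook composition, 7 of them are specific to Pol I, 7 to Pol II and 10 to Pol III, 2 are shared by Pol I and Pol III, and 5 are shared by all the enzymes. All 31 passed the filter on low counts described below. The lists, tests and pairs used here were chosen with earlier results of these data known.

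Each strain was grown at 29 °C to the late logarithmic stage, and each group has 2 poly(A) RNA libraries. CRN/PPN2 is CRN with the centromeric plasmid pMB1, which carries URA3 and expresses the polyphosphatase gene PPN2 from the constitutive TDH3 promoter. CRN (MATa ade2 his3 ura3 ppn1Δ::CgTRP1) lacks the polyphosphatase gene PPN1, so both strains lack it. The groups are CRN/PPN2 in YPD with 20 mM KOH for 25 h, CRN in YPD with 20 mM KOH for 40 h, CRN/PPN2 in YPD for 16 h and CRN in YPD for 16 h. Lysis of the CRN/PPN2 cells from KOH medium was directly in Trizol LS, while all other cells were frozen first and then opened with a French press. The study's growth methods also give a wash with sorbitol in the water for the CRN/PPN2 cells from KOH medium. For that group the strain, the medium, the hour of harvest, the wash and the lysis therefore cannot be told apart. CRN was grown for 40 h with KOH and 16 h in YPD. Its medium and hour of harvest therefore cannot be told apart either. Replicates 1 and replicates 2 were prepared and sequenced as separate batches. Separate cultures are not stated in the labels, and the p-values therefore reflect just the spread among these libraries, which may be technical.

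Pol I transcribes the large ribosomal RNA precursor, Pol II transcribes mRNAs, and Pol III transcribes tRNAs and the small 5S rRNA. Each enzyme is built from a catalytic pair of large subunits, an alpha-like assembly pair, a stalk and a set of small common subunits. Pol I and Pol III also hold built-in relatives of Pol II initiation factors. Yeast adjusts the synthesis of Pol I and Pol III to growth together with that of ribosomes, and many genes of this program carry the promoter elements PAC and RRPE. The repressors DOT6 and TOD6 bind PAC, and the repressor STB3 binds RRPE.

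The 8 libraries held 796548 to 5004823 counts. The CRN/PPN2 libraries with KOH were the shallowest, at 1559324 counts in replicate 1 and 796548 in replicate 2, and the lowest count of any subunit gene was 17, for RPA14 in replicate 2 of that group. A single count there was worth 0.641 and 1.26 CPM (counts scaled by library size and TMM factors), against 0.2 to 0.26 CPM in the other libraries. PPN1 had 0 or 1 count in each library. PPN2 had 5997.4 and 6134.8 CPM in CRN/PPN2 with KOH and 6853.5 and 6468.3 CPM in CRN/PPN2 in YPD, against 220.0 and 207.2 CPM in CRN with KOH and 215.0 and 206.0 CPM in CRN in YPD, in accord with the labels. Testing was limited to the 5430 genes that reached 10 CPM, by library size alone, in 2 libraries or more. It used the quasi-likelihood test of edgeR, fitted to the 4 groups with batch as a blocking term. A gene was called at a Benjamini-Hochberg adjusted p under 0.05 over all genes tested. SE is the standard error of the log2 fold change. CPM are shares of a whole library, so fewer cells with a transcript and less of it per cell cannot be told apart.

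Levels of different subunit genes were compared per kilobase of coding sequence. In CRN in YPD 4 of the 5 genes of the common subunits stood highest, with 763.0 CPM per kb for RPO26, 646.2 for RPB10, 481.4 for RPC10 and 371.4 for RPB5. The largest subunits of Pol II and Pol III stood lowest, with 33.4 CPM per kb for RPO21 and 36.4 for RPO31, while RPA190, the largest subunit of Pol I, had 99.6. The second largest subunits had 141.1 (RPB2 of Pol II), 111.3 (RPA135 of Pol I) and 65.3 CPM per kb (RET1 of Pol III). Within each enzyme's catalytic pair the second largest subunit had the higher level per kb.

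**Figure D1:**
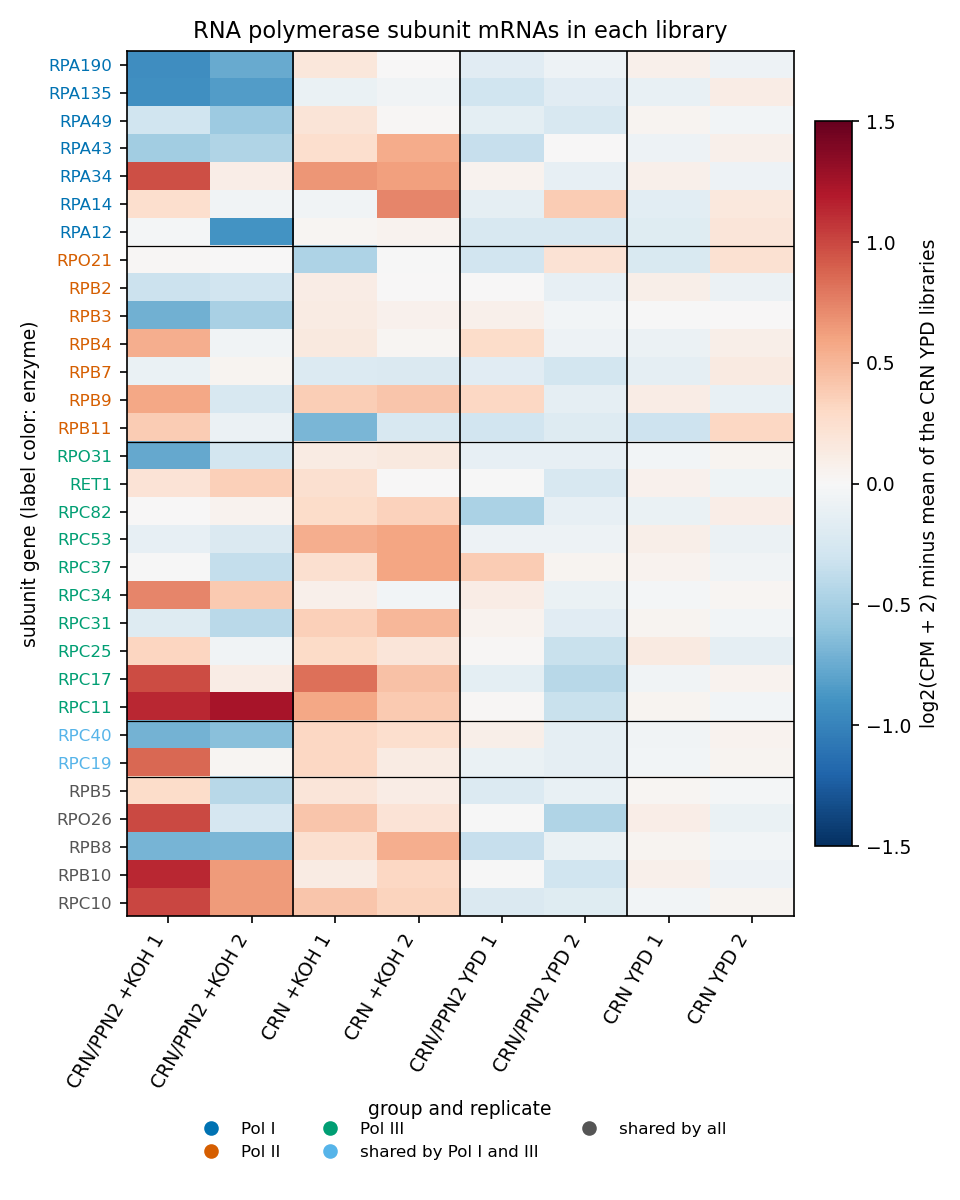
Level of each subunit gene (rows, grouped by enzyme) in each library (columns), as log2(CPM + 2) minus the mean of the CRN YPD libraries; red is higher and blue is lower. The CRN/PPN2 libraries with KOH are blue for RPA190, RPA135, RPC40 and RPB8 and red for RPC11, RPB10 and RPC10.

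As shares of the summed CPM of the 31 genes, the Pol I genes made up 22.3% and 23.4% in CRN/PPN2 with KOH, 29.8% in both CRN libraries with KOH, 27.9% and 30.7% in the CRN/PPN2 libraries from YPD, and 30.1% and 30.4% in those of CRN from YPD. The Pol I share was thus lower in the CRN/PPN2 libraries with KOH than in each of the other 6 libraries. The Pol II genes held 22.7% and 25.2% in CRN/PPN2 with KOH, and 22% to 26.7% in the other libraries. The Pol III genes held 18.8% and 23.2% in CRN/PPN2 with KOH and 17.5% to 19.4% in the others. The 5 common subunits took 28.8% in replicate 1 and 21.1% in replicate 2 of CRN/PPN2 with KOH, against 17.3% to 20.2% elsewhere. Among these 5, RPO26 had 711.1 CPM in replicate 1 and 298.8 CPM in replicate 2. Over the 31 genes the median absolute log2 difference between replicates was 0.30 in CRN/PPN2 with KOH (0.26 over all genes tested), 0.12 in CRN with KOH, and in YPD 0.21 in CRN/PPN2 and 0.15 in CRN.

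The starts of the subunit genes were searched for the PAC core GATGAG, on both strands of R64, in the 250 bases before the start codon. The PAC core was present for 6 of 7 Pol I genes, 8 of 10 Pol III genes and both genes shared by Pol I and Pol III, and for 0 of 7 Pol II genes and 0 of 5 genes common to all enzymes. It was present for 16.5% of 5897 protein-coding genes searched. RPA12 of Pol I and RPC17 and RPC11 of Pol III were the genes of these enzymes without it. With 50 bases after the start codon included, RPB2 of Pol II also held a match, and the share of all genes was 19.9%. The extended form CGATGAG was present for 4 of 7 Pol I genes, 3 of 10 Pol III genes, RPC40 and RPC19, against 6.41% of all genes. The RRPE core AAAATTTT, which reads the same on both strands and does not overlap PAC, was present for 16 of the 31 genes (51.6%) against 8.78% of all genes, and for 6 of 7 Pol I genes. A match is a description of these letters and says nothing of binding.

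Stretches around the PAC core are shown for genes that the results below turn on, read on the strand that carries the motif, with the PAC core in capitals. The first 4 belong to genes that fell with KOH in CRN/PPN2, and the next 4 to genes that rose with KOH in CRN. Other genes went against this grouping. RPA34, RET1, RPC34 and RPC19 hold a PAC core and rose with KOH in CRN/PPN2, while RPB3 and RPB8 fell there without one. In CRN, RPC17, RPC11, RPB8 and RPC10 rose without one.
RPA190: acctttttaagaGATGAGatgagatttgaa
RPA135: gaataattaagaGATGAGatgagtctctaa
RPC40: aaaaattattgcGATGAGttgaaagaaaaa
RPO31: taaccaaccagtGATGAGtttaaaaattta
RPA43: tgaaaagattccGATGAGggtgtatgggtg
RPA34: aaaaattttatcGATGAGcattgaatagct
RPC31: ataggttgctgcGATGAGgaaactattttc
RPC53: gctatgatgaGATGAGcttcattattga
In R64 these lie at chrXV:960808-960837 (minus strand) for RPA190, chrXVI:581283-581312 (plus) for RPA135, chrXVI:746901-746930 (minus) for RPC40 and chrXV:544226-544255 (plus) for RPO31. The others lie at chrXV:960347-960376 (minus) for RPA43, chrX:140315-140344 (plus) for RPA34, chrXIV:348587-348616 (plus) for RPC31 and chrIV:183093-183120 (plus) for RPC53. All are upstream of the coding sequence. RPA190 and RPA43 are neighbors transcribed away from each other, with 804 bases between their start codons, and each has its own PAC core there.

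The windows of RPA190 and RPA135, the catalytic pair of Pol I, shared an identical run of 17 bases, noticed after the stretches were read. It holds a PAC core (in capitals) that overlaps another, and it was found around the start of these 2 genes and of no other among the 5897.
Shared run: ttaagaGATGAGatgag
The first base of the run, on the gene's strand, lay 172 bases before the start codon of RPA190 and 109 bases before that of RPA135. RRPE lay close by in several Pol I genes, with the core in capitals in 2 examples.
RPA34: taaagaaatgaAAAATTTTatcgatgagca
RPA49: cacccgcgctgAAAATTTTttattgcgatg
These lie at chrX:140305-140334 (plus strand) for RPA34 and chrXIV:182735-182764 (minus) for RPA49, both upstream of the coding sequence. In each, the PAC core follows within the stretch or at its edge.

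**Figure D2:**
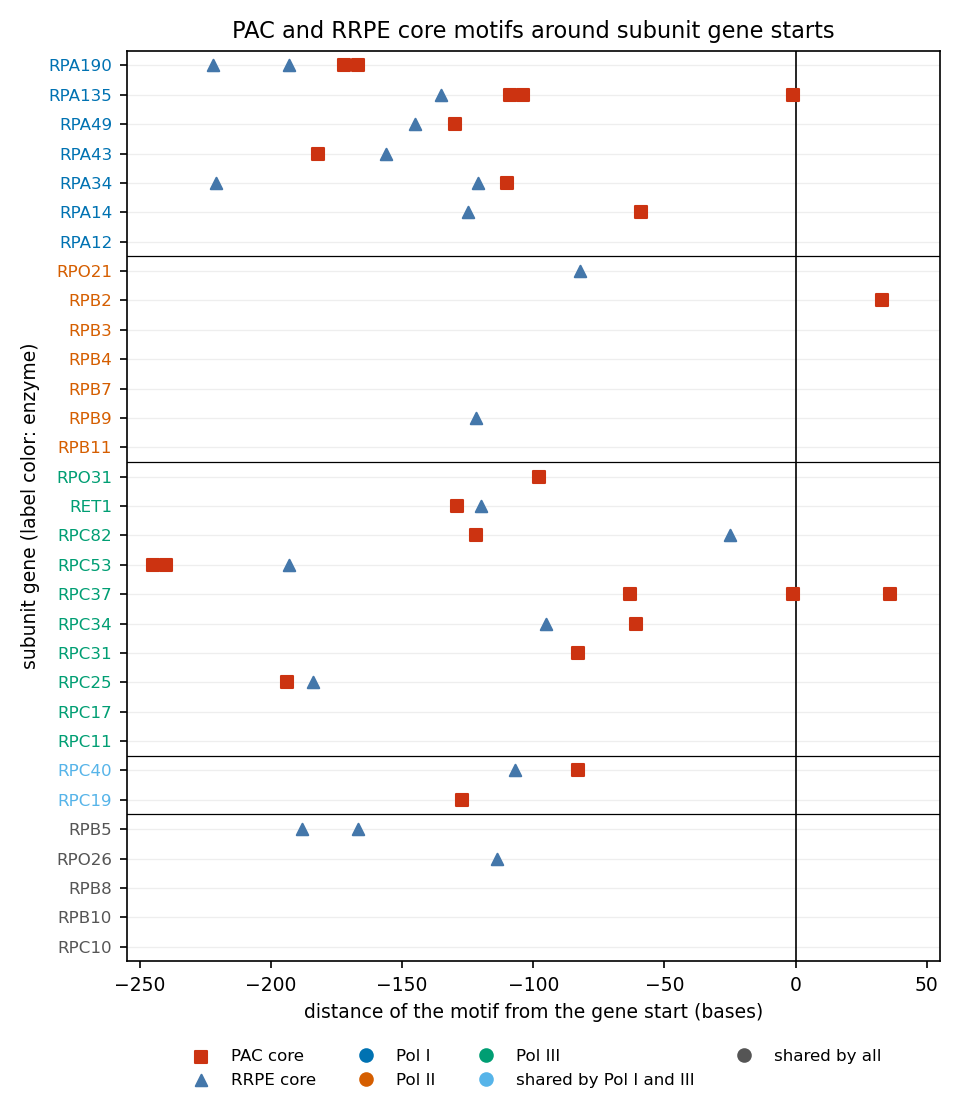
Position of PAC cores (squares) and RRPE cores (triangles) around the start codon of each subunit gene, with the distance in bases along the gene's strand on the horizontal axis (0 is the start codon). PAC cores lie upstream for 16 of the 31 genes, all of Pol I, Pol III or shared by these enzymes; the RPB2 match lies inside the coding sequence.

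With KOH in CRN, 8 of the 31 genes rose and 0 fell. Over all genes tested, 15.1% were called in this comparison (7.53% higher and 7.61% lower). The risers were RPA43 and RPA34 of Pol I, RPC53, RPC31, RPC17 and RPC11 of Pol III, and the common subunits RPB8 and RPC10, with log2 fold changes of 0.38 to 0.67. Of the 7 Pol II genes, 0 were called, with 2 at an unadjusted p under 0.05. The log2 fold change was above 0 for 27 of the 31 genes, and for all 10 Pol III genes, where 52% of all genes were above 0. The median was 0.38 for Pol III, 0.10 for Pol I, 0.06 for Pol II and 0.32 for the common subunits, against 0.01 over all genes tested. Without the replicate block 1 gene was called, and DESeq2 called 3. Each of the 8 calls was lost when some single library was left out. Without replicate 1 of CRN with KOH 4 genes were called, and without its replicate 2 there were 0. Without either CRN library from YPD 2 were called, without replicate 1 or 2 of CRN/PPN2 in YPD 6 and 5, and without either CRN/PPN2 library with KOH 14.

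In CRN/PPN2, KOH went with a rise of 9 subunit genes and a fall of 6, and Pol I, Pol III and the shared subunits each had genes in both directions. Over all genes tested, 54.7% were called (29.2% higher and 25.5% lower), so 15 of 31 is not above the background. The genes that rose were RPA34, RET1, RPC34, RPC17, RPC11, RPC19, RPO26, RPB10 and RPC10. Those that fell were RPA190 and RPA135 of Pol I, RPB3 of Pol II, RPO31 of Pol III, RPC40 and RPB8. The median log2 fold change was -0.22 for Pol I, 0.18 for Pol II, 0.33 for Pol III and 0.68 for the common subunits, against -0.01 over all genes. With upper quartile factors, which shifted the median of all genes by -0.10, 8 rose and 9 fell. Without replicate 1 of CRN/PPN2 with KOH 4 rose and 5 fell, and without replicate 2 12 rose and 6 fell.

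**Figure D3:**
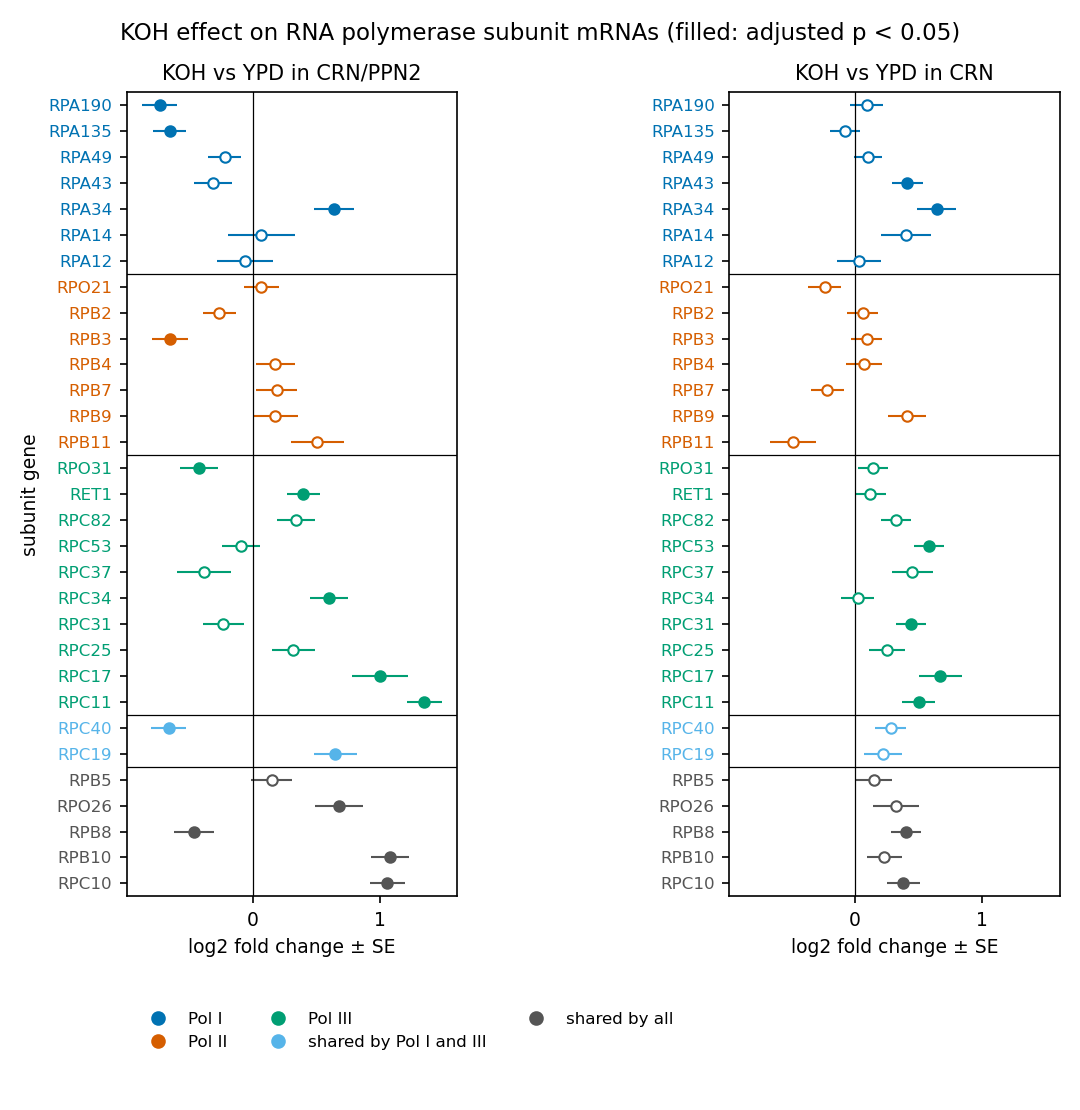
Log2 fold change with its SE for KOH vs. YPD in CRN/PPN2 (left) and in CRN (right) for each subunit gene; filled points have an adjusted p under 0.05. In CRN the filled points lie at 0.38 to 0.67, and in CRN/PPN2 they run from -0.73 (RPA190) to 1.35 (RPC11).

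When both strains had KOH, CRN/PPN2 stood above CRN for 5 subunit genes and below it for 12. Over all genes tested, 56.7% were called (30.8% higher and 25.9% lower). All 7 Pol I genes had log2 fold changes below 0, and 4 of them passed the test, where 51.4% of all genes were above 0. Within the batch of replicate 1 the value was 0.31 for RPA34 and 0.30 for RPA14. In that of replicate 2 it was -0.52 and -0.78. The median was -0.52 for Pol I, -0.18 for Pol III, 0.18 for Pol II and 0.13 for the common subunits, against 0.03 over all genes. Without replicate 1 of CRN/PPN2 with KOH 3 genes were higher and 15 lower, and without its replicate 2 the counts were 10 and 11. In YPD, 0 of the 31 genes were called between CRN/PPN2 and CRN by edgeR and by DESeq2, where 6.5% of all genes were called by edgeR (4.13% higher and 2.38% lower). RPC82 of Pol III had an unadjusted p of 0.0277 there, the single one under 0.05, with a log2 fold change of -0.30. The 25 log2 fold changes below 0 in YPD spanned -0.31 to -0.02, with 95% intervals of -0.38 to 0.12 for RPA190 and -0.29 to 0.18 for RPB2. Of all genes tested 51.1% were above 0 there, and the median was -0.13 for the 31 genes against 0.01 over all genes.

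The KOH effect itself was compared between the strains. It differed for 15 of the 31, being higher in CRN/PPN2 than in CRN for 5 and lower for 10, where 39.7% of all genes differed (22.2% higher and 17.6% lower). The difference was below 0 for all 7 Pol I genes, with a median of -0.33 against 0.02 over all genes. It was 0.10 in the median for Pol II, 0.05 for Pol III and 0.36 for the common subunits. Without replicate 2 of CRN in YPD the count of 15 was 7, and without replicate 1 of CRN/PPN2 in YPD it was 9. The comparisons share libraries, so their values are given side by side and not as separate support.

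RPA190, the largest and catalytic subunit of Pol I, had 259.4 and 292.9 CPM in CRN/PPN2 with KOH, 559.1 and 500.1 CPM in CRN with KOH, 439.9 and 471.5 CPM in CRN/PPN2 in YPD, and 522.8 and 472.2 CPM in CRN in YPD. Its level was lower in both CRN/PPN2 libraries with KOH than in all other libraries. It fell with KOH in CRN/PPN2 by 0.73 on the log2 scale (SE 0.14, adjusted p = 0.000229), with -0.76 and -0.68 within the 2 batches. In CRN its log2 fold change with KOH was 0.09, and the KOH effects of the strains differed by -0.82 (SE 0.19, adjusted p = 0.00227). RPA135, which forms the active center with RPA190, had 210.7 and 222.9 CPM in CRN/PPN2 with KOH, 374.4 and 385.9 CPM in CRN with KOH, 325.1 and 357.5 CPM in CRN/PPN2 in YPD, and 371.7 and 432.5 CPM in CRN in YPD. It was likewise lowest in both CRN/PPN2 libraries with KOH, and fell with KOH in CRN/PPN2 by 0.65 on the log2 scale (SE 0.13, adjusted p = 0.000367). For RPA135 the KOH effects of the strains differed by -0.57 (SE 0.17, adjusted p = 0.0145), a call lost without replicate 1 of CRN in YPD (-0.51), replicate 1 of CRN with KOH (-0.52) or either CRN/PPN2 library from YPD (-0.58 and -0.57). The falls of RPA190 and RPA135 in CRN/PPN2 held without each single library.

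RPA43, a stalk subunit that receives the initiation factor RRN3, had 71.5 and 74.7 CPM in CRN/PPN2 with KOH, 122.8 and 153.0 CPM in CRN with KOH, 80.7 and 103.6 CPM in CRN/PPN2 in YPD, and 98.0 and 108.6 CPM in CRN in YPD. The CRN libraries with KOH were the highest and the CRN/PPN2 libraries with KOH the lowest. RPA43 rose with KOH in CRN, at 0.41 on the log2 scale (SE 0.12, adjusted p = 0.0254), whereas in CRN/PPN2 the value was -0.31 (SE 0.15, adjusted p = 0.0912). The rise was not called without either CRN library from YPD (0.48 and 0.34), either CRN library with KOH (0.46 and 0.35) or replicate 2 of CRN/PPN2 in YPD (0.40). The KOH effects of the strains differed by -0.72 (SE 0.19, adjusted p = 0.00647), which was -0.66 and not called without replicate 2 of CRN in YPD. RPA34, which pairs with RPA49 in a module like the factor TFIIF, had 394.1 and 214.6 CPM in CRN/PPN2 with KOH, 317.8 and 308.0 CPM in CRN with KOH, 207.6 and 184.0 CPM in CRN/PPN2 in YPD, and 212.1 and 190.1 CPM in CRN in YPD. RPA34 was the Pol I gene that rose in both strains, by a log2 fold change of 0.64 in each (adjusted p = 0.00277 in CRN/PPN2 and 0.00712 in CRN). In CRN/PPN2 it was 0.92 within the batch of replicate 1 and 0.22 in that of replicate 2, and it was not called without replicate 1 of CRN/PPN2 with KOH (0.23) or in YPD (0.56). In CRN it was not called without replicate 1 in YPD (0.56) or replicate 2 with KOH (0.47).

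RPA49 had 205.0 and 173.1 CPM in CRN/PPN2 with KOH against 288.3 and 255.2 CPM in CRN with KOH, and was lower in CRN/PPN2 (log2 fold change -0.52, SE 0.13, adjusted p = 0.00211). With KOH against YPD its values were -0.22 in CRN/PPN2 and 0.10 in CRN, without a call. RPA14, the other stalk subunit, had 20.2 to 25.3 CPM in CRN/PPN2 with KOH and 18.6 to 36.0 CPM elsewhere, and RPA12, which takes part in RNA cleavage, had 33.2 to 62.0 CPM in CRN/PPN2 with KOH and 53.3 to 72 CPM elsewhere. Neither was called in any comparison. RPA14 overlaps another annotated gene, which may affect how reads there were counted.

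Of the 10 Pol III genes, 4 rose with KOH in each strain, with RPC17 and RPC11 called in both, and RPO31 fell in CRN/PPN2. Over all genes tested, 29.2% were higher and 25.5% lower in CRN/PPN2, against 7.53% and 7.61% in CRN. RPC11, which acts in RNA cleavage and termination, had 153.7 and 166.0 CPM in CRN/PPN2 with KOH, 103.9 and 91.6 CPM in CRN with KOH, 69.9 and 54.4 CPM in CRN/PPN2 in YPD, and 71.4 and 66.9 CPM in CRN in YPD. The groups with KOH did not overlap those in YPD, and with KOH CRN/PPN2 lay above CRN. RPC11 rose with KOH by 1.35 on the log2 scale in CRN/PPN2 (SE 0.14, adjusted p = 4.78e-07) and 0.50 in CRN (SE 0.13, adjusted p = 0.0152), and the KOH effects of the strains differed by 0.85 (SE 0.19, adjusted p = 0.00222). The rise in CRN was not called without any 1 of the 4 CRN libraries (0.46 to 0.52). RPC17, a stalk subunit, had 60.1 and 32 CPM in CRN/PPN2 with KOH, 53.9 and 40.6 CPM in CRN with KOH, 26.4 and 21.6 CPM in CRN/PPN2 in YPD, and 28.4 and 30.5 CPM in CRN in YPD. It rose in both strains too, with 1.00 in CRN/PPN2 (SE 0.22, adjusted p = 0.000932) and 0.67 in CRN (SE 0.17, adjusted p = 0.0141). For RPC17 the KOH effects differed by 0.33, which was not called (95% interval -0.21 to 0.87). Its rise was not called in CRN/PPN2 without replicate 1 with KOH (0.56), nor in CRN without replicate 1 in YPD (0.39) or either library with KOH (0.59 and 0.73).

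RPC53, of the TFIIF-like pair that acts in termination and reinitiation, had 78.4 and 73.5 CPM in CRN/PPN2 with KOH, 125.4 and 129.6 CPM in CRN with KOH, 81.3 and 80.8 CPM in CRN/PPN2 in YPD, and 90.7 and 80.6 CPM in CRN in YPD. RPC53 stood high in the CRN libraries with KOH alone. It rose with KOH in CRN (0.58, SE 0.12, adjusted p = 0.00265), had -0.09 in CRN/PPN2, and differed between the strains by -0.67 (SE 0.19, adjusted p = 0.0102). Both calls were lost without replicate 2 of CRN in YPD (0.49 and -0.59) or with KOH (0.50 and -0.61). RPC31, of the trimer with RPC82 and RPC34 that takes part in initiation, had 79.7 and 68.8 CPM in CRN/PPN2 with KOH, 118.3 and 130.2 CPM in CRN with KOH, 95 and 81.4 CPM in CRN/PPN2 in YPD, and 94.6 and 89.0 CPM in CRN in YPD. RPC31 showed the same order, with 0.44 in CRN (SE 0.12, adjusted p = 0.0224), -0.23 in CRN/PPN2 and a difference of -0.68 (SE 0.20, adjusted p = 0.0122). The rise was not called without either CRN library from YPD (0.45 and 0.43) or replicate 2 with KOH (0.27), nor the difference without replicate 2 of CRN in YPD (-0.68) or with KOH (-0.53) or replicate 1 of CRN/PPN2 in YPD (-0.56). RPC37, the partner of RPC53, had 48.7 and 37.9 CPM in CRN/PPN2 with KOH and 58.5 and 74.8 CPM in CRN with KOH. Its KOH effect differed by -0.83 (SE 0.26, adjusted p = 0.0175), with neither strain's own change called. That of RPC37 was not called without replicate 2 of CRN in YPD (-0.81), of CRN with KOH (-0.53) or of CRN/PPN2 with KOH (-0.69), or replicate 1 of CRN/PPN2 in YPD (-0.60).

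RPC34 ran the other way from its trimer partner RPC31. It had 118.3 and 93.7 CPM in CRN/PPN2 with KOH, 74.7 and 68.8 CPM in CRN with KOH, 76.2 and 65.7 CPM in CRN/PPN2 in YPD, and 68.9 and 72.4 CPM in CRN in YPD. RPC34 rose with KOH in CRN/PPN2 by 0.60 on the log2 scale (SE 0.15, adjusted p = 0.0024), against 0.02 in CRN, and was not called without replicate 1 of CRN/PPN2 with KOH (0.48) or after thinning (0.33). For RPC34 the KOH effects of the strains differed by 0.58 (SE 0.20, adjusted p = 0.0273), a call lost under 11 of 17 alternatives, 6 of them a single library left out, with values of 0.25 to 0.70 over the 17. RPO31, the largest subunit, had 93.0 and 131.6 CPM in CRN/PPN2 with KOH, 173.5 and 177.1 CPM in CRN with KOH, 146.5 and 146.6 CPM in CRN/PPN2 in YPD, and 154.4 and 164.7 CPM in CRN in YPD. It fell with KOH in CRN/PPN2 by 0.42 on the log2 scale (SE 0.15, adjusted p = 0.0212), a call that was lost without the replicate block (-0.41), after thinning (-0.35), or without replicate 1 of CRN/PPN2 with KOH (-0.15) or in YPD (-0.34). The difference of its KOH effect between the strains, -0.56 (adjusted p = 0.0278), was not called under 9 of 17 alternatives, 6 of them a single library left out, and was -0.29 without replicate 1 of CRN/PPN2 with KOH. RET1, the second largest subunit, had 260.0 and 289.3 CPM in CRN/PPN2 with KOH, 266.3 and 225.8 CPM in CRN with KOH, 224.1 and 190.9 CPM in CRN/PPN2 in YPD, and 235.5 and 215.0 CPM in CRN in YPD. RET1 rose with KOH in CRN/PPN2 by 0.40 (SE 0.13, adjusted p = 0.0166), while RPO31 fell, and that call was lost under 7 of 18 alternatives. These were no replicate block (0.40), upper quartile factors (0.30), no filter on low counts (0.32), thinning to the smallest library (0.30), the libraries of the comparison alone (0.37), and leaving out replicate 2 of CRN/PPN2 with KOH (0.24) or in YPD (0.31). RPC82 and the stalk subunit RPC25 were called in no comparison. Their log2 fold changes with KOH were 0.34 and 0.32 in CRN/PPN2 and 0.32 and 0.25 in CRN.

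RPC40 and RPC19 form the alpha-like assembly pair of Pol I and Pol III. RPC40 had 170.8 and 181.4 CPM in CRN/PPN2 with KOH, 348.1 and 335.0 CPM in CRN with KOH, 297.5 and 256.3 CPM in CRN/PPN2 in YPD, and 269.6 and 292.1 CPM in CRN in YPD. RPC19 had 239.8 and 134.0 CPM in CRN/PPN2 with KOH, 163.4 and 144.0 CPM in CRN with KOH, 122.6 and 119.9 CPM in CRN/PPN2 in YPD, and 127.5 and 135.8 CPM in CRN in YPD. RPC40 was lowest in the 2 libraries of CRN/PPN2 with KOH, and RPC19 was highest in 1 of them. With KOH in CRN/PPN2, RPC40 fell by 0.66 on the log2 scale (SE 0.14, adjusted p = 0.00052) and RPC19 rose by 0.65 on that scale (SE 0.17, adjusted p = 0.00339). The rise of RPC19 was 0.96 within the batch of replicate 1 and 0.16 in that of replicate 2, and it was not called without replicate 1 of CRN/PPN2 with KOH (0.19) or in YPD (0.53). For RPC40 the KOH effect differed between the strains by -0.94 (SE 0.18, adjusted p = 0.000648).

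Of the 5 common subunits, RPB10, RPC10 and RPO26 rose with KOH in CRN/PPN2 and RPB8 fell, where 29.2% of all genes rose and 25.5% fell. RPB10, a small subunit at the assembly platform, had 303.7 and 214.6 CPM in CRN/PPN2 with KOH, 150.4 and 170.4 CPM in CRN with KOH, 137.1 and 111.1 CPM in CRN/PPN2 in YPD, and 144.8 and 130.5 CPM in CRN in YPD. RPC10, its neighbor in the enzymes, had 207.5 and 160.1 CPM in CRN/PPN2 with KOH, 137.1 and 130.2 CPM in CRN with KOH, 88.1 and 89.9 CPM in CRN/PPN2 in YPD, and 99.6 and 105.5 CPM in CRN in YPD. Both were highest in the CRN/PPN2 libraries with KOH, with log2 fold changes against YPD of 1.08 for RPB10 (SE 0.15, adjusted p = 8.7e-06) and 1.06 for RPC10 (SE 0.14, adjusted p = 4.7e-06). In CRN the values with KOH were 0.23 for RPB10, not called, and 0.38 for RPC10 (adjusted p = 0.0485). The rise of RPC10 in CRN was not called without any 1 of the CRN libraries or of the CRN/PPN2 libraries from YPD (0.28 to 0.48). The KOH effects of the strains differed by 0.84 for RPB10 and 0.68 for RPC10. That of RPB10 was not called without replicate 1 of CRN with KOH (0.60), nor that of RPC10 without replicate 2 of CRN in YPD (0.56) or replicate 1 of CRN/PPN2 in YPD (0.62). RPB8 had 75.3 and 75.9 CPM in CRN/PPN2 with KOH, 145.1 and 179.8 CPM in CRN with KOH, 96.0 and 114.2 CPM in CRN/PPN2 in YPD, and 126.6 and 119.4 CPM in CRN in YPD. It moved in opposite directions in the strains, with -0.46 in CRN/PPN2 (SE 0.16, adjusted p = 0.0191) and 0.40 in CRN (SE 0.12, adjusted p = 0.0385), a difference of -0.85 (SE 0.20, adjusted p = 0.00267). In CRN/PPN2 the RPB8 call was lost without replicate 1 or 2 with KOH (-0.52 and -0.39) or replicate 2 in YPD (-0.40), and in CRN without any 1 of the CRN libraries or of the CRN/PPN2 libraries from YPD (0.23 to 0.55).

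RPO26, the common subunit that holds the clamp, had 711.1 and 298.8 CPM in CRN/PPN2 with KOH, 477.3 and 411.3 CPM in CRN with KOH, 355.1 and 260.8 CPM in CRN/PPN2 in YPD, and 382.8 and 331.4 CPM in CRN in YPD. The groups overlapped, and the log2 fold change with KOH in CRN/PPN2 of 0.68 (SE 0.19, adjusted p = 0.00492) was 0.14 without replicate 1 of CRN/PPN2 with KOH and 0.64 without that in YPD, neither called. RPB5, at the downstream DNA, had 291.6 and 180.2 CPM in CRN/PPN2 with KOH, 272.4 and 260.5 CPM in CRN with KOH, 209.0 and 221.7 CPM in CRN/PPN2 in YPD, and 245.5 and 235.8 CPM in CRN in YPD. RPB5 was called in no comparison, with log2 fold changes with KOH of 0.15 in both strains.

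Among the 7 Pol II genes, 1 was called with KOH in CRN/PPN2, 3 between the strains with KOH and 2 for the difference of the KOH effect. Over all genes tested, these comparisons called 54.7%, 56.7% and 39.7%. RPO21, the largest subunit of Pol II, had 173.3 and 173.1 CPM in CRN/PPN2 with KOH, 124.4 and 170.6 CPM in CRN with KOH, 140.4 and 200.1 CPM in CRN/PPN2 in YPD, and 146.4 and 201.3 CPM in CRN in YPD. In 3 groups RPO21 was lower in replicate 1 than in replicate 2, and its log2 fold change with KOH was 0.07 in CRN/PPN2 (interval -0.20 to 0.35) and -0.24 in CRN (interval -0.49 to 0.01). RPB2 had 412.5 and 423.3 CPM in CRN/PPN2 with KOH, 559.9 and 518.1 CPM in CRN with KOH, 520.6 and 476.6 CPM in CRN/PPN2 in YPD, and 551.3 and 485.7 CPM in CRN in YPD. It was lower in CRN/PPN2 than in CRN with KOH (log2 fold change -0.37, SE 0.13, adjusted p = 0.0203), not called without replicate 1 or 2 of CRN with KOH (-0.36 and -0.39) or replicate 1 of CRN/PPN2 with KOH (-0.25). RPB3, of the alpha-like pair of Pol II, had 91.1 and 107.9 CPM in CRN/PPN2 with KOH, 164.8 and 158.3 CPM in CRN with KOH, 160.0 and 147.6 CPM in CRN/PPN2 in YPD, and 151.2 and 151.7 CPM in CRN in YPD. RPB3 was the Pol II gene that fell with KOH in CRN/PPN2, by 0.65 on the log2 scale (SE 0.14, adjusted p = 0.000823), and its effect differed between the strains by -0.74 (SE 0.18, adjusted p = 0.00397). Its partner RPB11 had 69.6 and 49.8 CPM in CRN/PPN2 with KOH, 32.2 and 44.5 CPM in CRN with KOH, 43.1 and 45.9 CPM in CRN/PPN2 in YPD, and 42.3 and 66.2 CPM in CRN in YPD. For RPB11 the difference was 1.00 (SE 0.28, adjusted p = 0.00921), from 2 changes that did not pass the test on their own (0.51 in CRN/PPN2 and -0.49 in CRN). It was not called without replicate 2 of CRN in YPD (0.66) or of CRN/PPN2 in YPD (0.87), or without replicate 1 of CRN with KOH (0.87) or of CRN/PPN2 with KOH (0.48). RPB4 and RPB7 of the stalk and RPB9, which acts in fidelity, were called in no comparison.

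The balance between partner subunits was followed as a ratio of counts within each library, which needs no scaling between libraries. The ratio of RPC40 to RPC19 was 0.712 and 1.35 for CRN/PPN2 with KOH, 2.13 and 2.33 for CRN with KOH, and in YPD 2.43 and 2.14 for CRN/PPN2 and 2.11 and 2.15 for CRN. The ratio of RPO31 to RET1 was 0.358 and 0.455 for CRN/PPN2 with KOH, 0.652 and 0.784 for CRN with KOH, and in YPD 0.654 and 0.768 for CRN/PPN2 and 0.655 and 0.766 for CRN. For both pairs the CRN/PPN2 libraries with KOH lay below all other libraries, which stayed within 2.11 to 2.43 and 0.652 to 0.784. The ratio of RPB3 to RPB11 was also lowest there, at 1.31 and 2.17 against 2.29 to 5.12 in the other libraries, and so was RPA49 to RPA34, at 0.52 and 0.807 against 0.828 to 1.3. For the Pol I catalytic pair the libraries overlapped, with a ratio of RPA190 to RPA135 of 1.23 and 1.31 in CRN/PPN2 with KOH against 1.09 to 1.49 in the other libraries. Of the 10 pairs followed, the CRN/PPN2 libraries with KOH lay below all 6 other libraries for 5, above them for 0, and among them for 5. The fifth pair below was RPA43 to RPA14 of the Pol I stalk, by a narrow margin, at 2.83 and 3.71 against 3.72 to 6.08. Besides the Pol I catalytic pair, RPO21 to RPB2, RPC53 to RPC37, RPB7 to RPB4 and RPC25 to RPC17 overlapped. In each pair but RPB7 to RPB4 the first gene has the longer coding sequence. Over all genes tested, the median log2 fold change with KOH in CRN/PPN2 was 0.45 under 500 bases and -0.06 from 2000 bases. No share was computed for other pairs of genes, so the count of 5 has no background beside it. The ratios, and the part of length in them, were not tested. These pairs were taken from known structure, with the changes of their members already seen.

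**Figure D4:**
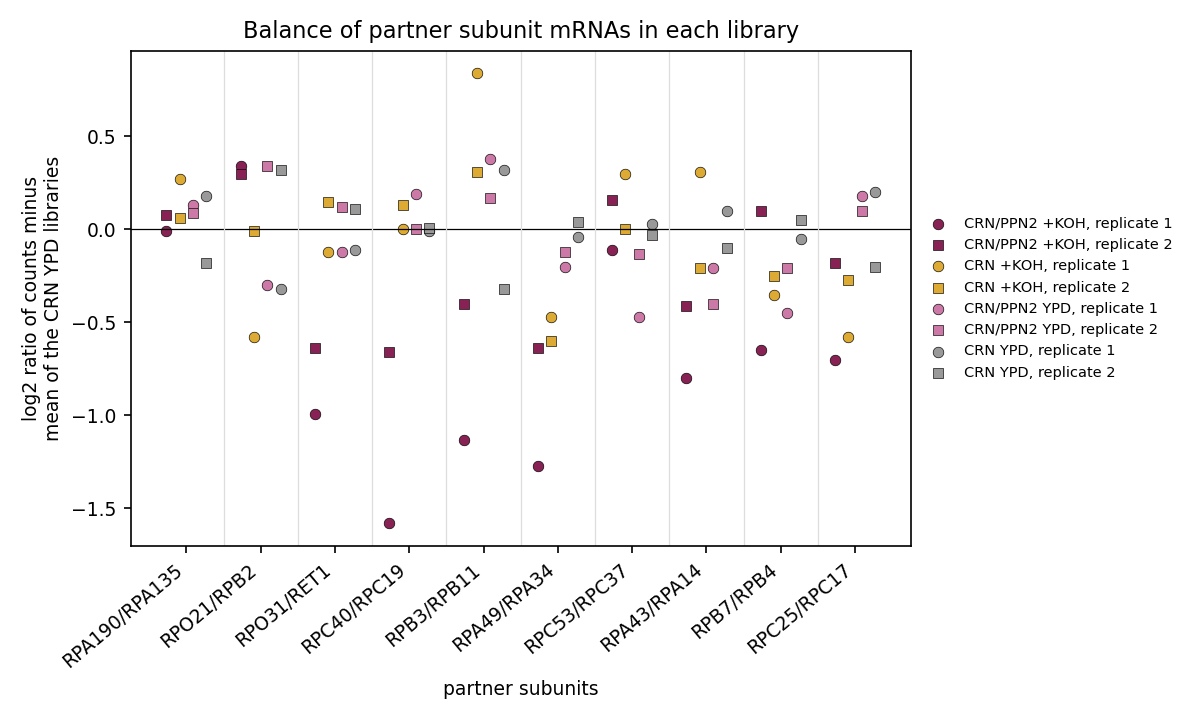
Log2 ratio of the counts of partner subunits in each library, minus the mean of the CRN YPD libraries (vertical axis), for 10 pairs (horizontal axis); circles are replicates 1 and squares replicates 2. The CRN/PPN2 libraries with KOH lie below all others for RPC40/RPC19 (-1.58 and -0.66) and RPO31/RET1 (-0.99 and -0.64) and among the others for RPA190/RPA135 (-0.01 and 0.08).

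The KOH effect in CRN/PPN2 ran with coding length. Among the 31 genes, the 11 under 500 bases had a median log2 fold change of 0.65, and the 6 of 2000 bases or more had -0.34. Over all genes tested these medians were 0.45 for 613 genes under 500 bases and -0.06 for 1262 genes of 2000 bases or more, and 50.1% and 24.6% were called higher. In CRN the medians of the subunit genes were 0.38 and 0.07, and those of all genes 0.10 and -0.04. As a description across genes that share the same libraries, the log2 fold change in CRN/PPN2 correlated with log2 coding length with r = -0.57 (rho = -0.62, n = 31), against r = -0.14 over 5327 genes. With a smooth trend of each library with coding length removed, an alternative chosen after seeing the data, 10 subunit genes rose and 8 fell with KOH in CRN/PPN2, among them all 15 called without that step. For 3 of these the rise was smaller by more than 1.5 times, at 0.39 for RPB10, 0.38 for RPC10 and 0.88 for RPC11. Between CRN/PPN2 and CRN with KOH, 1 was then higher and 14 lower, in place of 5 and 12, and RPB11 (0.39), RPC11 (0.31), RPB10 (0.13) and RPC10 (-0.10) were no longer called. The difference of the KOH effect then had 2 higher and 12 lower, in place of 5 and 10, and RPC11 (0.46), RPB10 (0.24) and RPC10 (0.07) were not called. The part of transcript length, depth or lysis in these values was not tested.

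**Figure D5:**
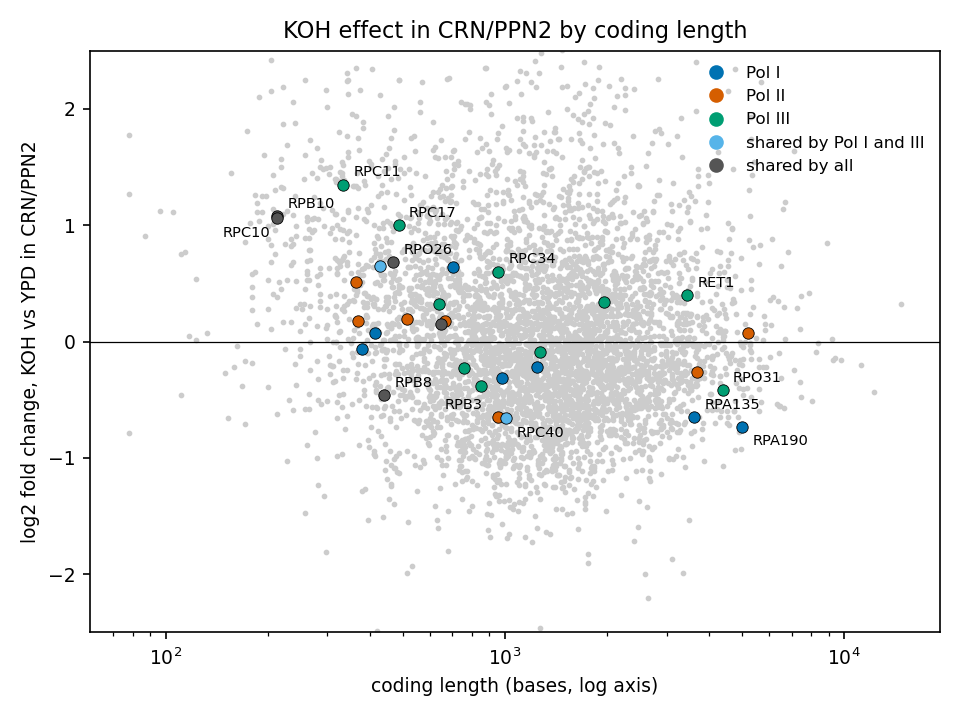
Log2 fold change for KOH vs. YPD in CRN/PPN2 (vertical axis) against coding length in bases (log axis) for the subunit genes (colored by enzyme, most called genes named) over all genes tested with a coding length (gray); 114 genes fall outside the axis. Short subunit genes such as RPB10, RPC10 and RPC11 lie above 1 and long ones such as RPA190 and RPA135 below -0.6.

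Set beside the PAC core, the subunit genes fell into 16 with and 15 without. Between CRN/PPN2 and CRN with KOH, the 16 had a median log2 fold change of -0.56, with 1 higher and 9 lower, and the 15 had 0.13, with 4 higher and 3 lower. Over all genes tested the medians were -0.16 for 889 genes with the core and 0.05 for 4423 without, with 33.3% and 24.9% lower. The shares higher were 24.2% and 31.8%. Among the subunit genes the split was smaller for the other motifs, while over all genes tested it was larger for them. The 9 subunit genes with the extended PAC had a median of -0.28, with 0 higher and 4 lower, and the 22 without it had -0.06, with 5 higher and 8 lower. Over all genes tested the medians were -0.25 for 367 genes with the extended PAC and 0.04 for 4945 without. Of these genes 18.5% and 31.4% were higher, and 40.3% and 25.3% lower. The subunit genes with RRPE had a median of -0.17, with 1 of 16 higher and 6 lower, and those without it 0.03, with 4 of 15 higher and 6 lower. Over all genes tested the medians were -0.33 for 497 genes with RRPE and 0.05 for 4815 without. Of these genes 19.1% and 31.7% were higher, and 47.3% and 24.1% lower. With KOH in CRN/PPN2, the subunit genes with the PAC core had a median of -0.15, with 4 of 16 higher and 4 lower, and those without it 0.18, with 5 of 15 higher and 2 lower. Over all genes tested these medians were -0.04 and -0.01, with 26.8% and 29.2% higher and 25.1% and 26.1% lower. In CRN, 4 of the 16 and 4 of the 15 subunit genes rose with KOH, where 16.6% of all genes with the core and 5.67% of those without it were higher. With the extended PAC 3 of 9 subunit genes rose and without it 5 of 22, against 26.4% of 367 and 6.11% of 4945 over all genes. The 16 are all genes of Pol I, Pol III or both, and the 15 include all 7 Pol II genes and all 5 common subunits. The 16 had a median coding length of 994.5 bases and the 15 of 468 bases. The part of the motif, the enzyme or the length was not tested.

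The regulators that bind these elements were followed together with SFP1 and MAF1, and they changed in part. DOT6 averaged 135.8 ± 9.26 CPM in CRN/PPN2 with KOH, 95.9 ± 15.7 CPM in CRN with KOH, 102.5 ± 12.4 CPM in CRN/PPN2 in YPD and 102.5 ± 11.8 CPM in CRN in YPD (SD, n = 2 each). It rose with KOH in CRN/PPN2 by 0.44 (SE 0.14, adjusted p = 0.0139), a call lost without replicate 1 of CRN/PPN2 with KOH (0.23) or either CRN/PPN2 library from YPD (0.40 and 0.45). TOD6 rose with KOH in both strains, by 0.58 in CRN/PPN2 (adjusted p = 0.00814) and 0.56 in CRN (adjusted p = 0.0126). For TOD6 the first call was lost without replicate 1 of CRN/PPN2 in YPD (0.42), and the second without replicate 2 of CRN in YPD (0.43) or either CRN library with KOH (0.51 and 0.61). SFP1, an activator of ribosome synthesis genes, had 29.7 and 43.9 CPM in CRN/PPN2 with KOH, 75.7 and 71.3 CPM in CRN with KOH, 57.4 and 66.3 CPM in CRN/PPN2 in YPD, and 73.2 and 83.7 CPM in CRN in YPD. SFP1 fell with KOH in CRN/PPN2 by 0.80 on the log2 scale (SE 0.19, adjusted p = 0.00193), with -0.52 and no call without replicate 1 of CRN/PPN2 with KOH. STB3 and the Pol III repressor MAF1 were called in no comparison.

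Lists of factors that work with each enzyme were set beside the shares of all genes, which in CRN/PPN2 with KOH were 29.2% higher and 25.5% lower. The counts of the transcription and elongation factors there lay near or below these shares. In that group, 1 of 9 Pol I transcription factors rose (RRN3, 0.44) and 2 fell, among them HMO1, which binds ribosomal DNA (-1.07, SE 0.15, adjusted p = 1.41e-05). Of 9 Pol III transcription factors, 3 rose, among them BDP1 of TFIIIB (0.62), and 2 fell, among them TFC3 of TFIIIC (-1.53, SE 0.14, adjusted p = 1.02e-07). Of 18 Pol II general factors, 4 rose, among them TFB5 of TFIIH (1.33), and 2 fell, among them SSL1 of TFIIH (-1.01). Of 11 Pol II elongation factors, 4 rose, among them SPT4 (1.13), and 2 fell, among them its partner SPT5 (-0.98). With KOH in CRN/PPN2, 50.1% of all genes under 500 bases and 24.6% of those from 2000 bases were higher. TFB5 has 219 coding bases. The part of length in the changes of these factors was not tested. In CRN, 3 of 9 polymerase assembly and import factors rose with KOH (BUD27, GPN2 and GPN3, with 0.43 to 0.47) and 0 fell, where 7.53% of all genes were higher and 7.61% lower, and 1 of 9 Pol I factors rose (RRN11, 0.49), while 0 Pol II and Pol III factors were called. In CRN/PPN2 3 assembly factors rose and 1, RBA50, fell (-0.41). The calls of BUD27, GPN2, GPN3 and RRN11 in CRN were lost without any 1 of the 4 CRN libraries, with log2 fold changes of 0.28 to 0.63. That of RRN3 was lost without either CRN/PPN2 library from YPD (0.48 and 0.40) or replicate 1 with KOH (0.47). That of RBA50 was lost without most single libraries, and was -0.23 without replicate 1 of CRN/PPN2 with KOH.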

How the data were processed

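Reads were mapped by the authors with STAR 2.7.6a to R64-1-1 (Ensembl 107), and raw counts per gene were deposited. The strand column is not given in the sources used here. The members and gene lists were chosen with earlier results of these data known. The rule for named genes gave per-library values for the 2 largest subunits of each enzyme, the common subunits and, per comparison and class, up to 4 called members with the smallest adjusted p that moved one way in both replicates, and values for up to 3 called genes per other list. Further members were named to account for the whole set. In R 4.3.3, edgeR 4.0.16 fitted TMM-scaled counts in a model of 4 groups blocked by replicate number, which marks a preparation and sequencing batch in the study's methods. Replicate differences correlated between groups with r of 0.093 to 0.467. SE was the absolute log2 fold change over the square root of F, and is approximate. Differences within a batch used log2(CPM + 2). Alternatives were no block, DESeq2 1.42.0, ComBat-seq (sva 3.50.0), RLE and upper quartile factors, other filters, thinning to 796548 counts, fewer libraries and a length adjustment. Promoters were read from RefSeq R64, whose genes start at the start codon.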

Additional observations from a re-analysis of the deposited data

Results flagged for a closer look

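The KOH effect differed between CRN/PPN2 and CRN, by edgeR's quasi-likelihood test of the interaction at an adjusted p under 0.05, for 15 of the 31 subunit genes, where 39.7% of all genes differed. The values below are the KOH effect in CRN/PPN2 minus that in CRN on the log2 scale. It was lower in CRN/PPN2 for RPA190 (-0.82), RPA135 (-0.57) and RPA43 (-0.72) of Pol I, RPB3 (-0.74) of Pol II, RPO31 (-0.56), RPC53 (-0.67), RPC37 (-0.83) and RPC31 (-0.68) of Pol III, RPC40 (-0.94) and RPB8 (-0.85). It was higher in CRN/PPN2 for RPB11 (1.00), RPC34 (0.58), RPC11 (0.85), RPB10 (0.84) and RPC10 (0.68). Of 17 alternatives, 11 ended the call for RPC34 (values of 0.25 to 0.70), 9 for RPO31 (-0.75 to -0.29), 5 each for RPA135 and RPB11, 4 for RPC37, 3 each for RPC53, RPC31 and RPC10, 2 for RPB10, 1 each for RPA43, RPB3 and RPC11, and 0 for RPA190, RPC40 and RPB8. With the length adjustment RPC10 had 0.07, RPB10 0.24 and RPC11 0.46, none called. The strains were also harvested at different hours with KOH and lysed in different ways, which cannot be told apart from the strain.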

How the results depend on the processing

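Of 2821 values of single subunit genes under the alternatives, 2501 kept their direction and their side of the threshold, 100 turned sign with no call before or after, 143 lost and 74 gained a call, and 3 turned sign with a call in the report or under the alternative. Leaving out single libraries gave -0.46 to 0.30 for RPA34 and -0.40 to 0.57 for RPO26 between CRN/PPN2 and CRN with KOH, with the turned signs without CRN/PPN2 +KOH replicate 2 for RPA34 and replicate 1 for RPO26. For TFC6 of TFIIIC they gave -1.09 to 0.04, above 0 without CRN/PPN2 +KOH replicate 1. RPC10 had -0.10 there with the length adjustment. With KOH in CRN, 8 subunit genes were called in the report, 1 without the replicate block, 3 by DESeq2, 1 after thinning, 15 with the libraries of the comparison alone and 14 without both CRN/PPN2 +KOH libraries. Leaving out single libraries gave 0 to 14 calls there, 9 to 18 with KOH in CRN/PPN2 (15 in the report), 13 to 21 between CRN/PPN2 and CRN with KOH (17), and 7 to 18 for the difference of the KOH effect (15). In YPD every alternative gave 0 calls between the strains. The length adjustment gave 2 higher and 12 lower differences of the KOH effect, in place of 5 and 10. The causes were not tested. RPA190, RPA135 and RPC40 were called lower in CRN/PPN2 with KOH, against YPD and against CRN, under all 18 alternatives, as was RPB3. Counts as low as 17 limit the precision for RPA14, RPA12 and RPC17 in the shallow CRN/PPN2 +KOH libraries.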
